A study of Homo sapiens with 8 samples.

Results

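Gene expression in HEK293T cells labelled as KDM5C knockout was compared directly with that in cells labelled as KDM6A knockout, across all expressed genes. The comparison used 4 of the 8 RNA-seq libraries of the series, 2 labelled sgKDM5C and 2 labelled sgKDM6A, chosen by their labels and not by any measured value. The remaining 4 libraries, 2 of wild-type (WT) cells and 2 of sgKMT2B cells, gave reference levels and helped to estimate the spread. HEK293T is a transformed human embryonic kidney line that carries the SV40 large T antigen. The genotype labels read WT, KDM5C knockout, KDM6A knockout and KMT2B knockout, and all 4 groups were grown under the same culture conditions with no drug or other agent named. The guide positions, the kind of control that WT stands for, and whether a knockout is a single clone or a pool are not stated in the labels. Nor is it stated whether replicates are separate cultures, and p-values then measure only the spread between these libraries, which may be technical.

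KDM5C and KDM6A are X-linked histone demethylases of the JmjC family that act on different marks. KDM5C removes methyl groups from lysine 4 of histone H3 (H3K4), a mark laid down by COMPASS-type methyltransferases at promoters and enhancers, and it is best known for restraining neuronal and germline genes. KDM6A, also called UTX, removes methyl groups from lysine 27 (H3K27), the mark of Polycomb repressive complex 2, and is also a subunit of the enhancer-associated KMT2C and KMT2D complexes. Loss of the former can therefore leave an activating mark in place, and loss of the latter a repressive mark, which is why the direct contrast of both knockouts is of interest. Histone marks were not measured here.

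Total counts in the 4 libraries ran from 25062543 to 27591724, and replicates of the same group correlated with r = 0.984 to 0.988 across genes on a log scale. A set of 17527 of 60617 genes passed the filter on low counts and was tested. Every difference below is sgKDM5C minus sgKDM6A on the log2 scale with its standard error (SE) from edgeR's quasi-likelihood fit. A gene is called when its Benjamini-Hochberg adjusted p over all 17527 genes is under 0.05. Levels are in CPM, counts scaled to a common library size with TMM factors. Scaled by library totals without these factors, 3 counts in a library correspond to 0.109 to 0.189 CPM. Between genes the levels are not corrected for length, so they are compared only across libraries. The kidney list of 40 genes summed to 453 CPM in each sgKDM5C library and to 444 and 445 CPM in the sgKDM6A libraries, but its defining genes were uneven. PAX2, a kidney lineage factor named after its values were seen, lay between 7.77 and 17.4 CPM in all 8 libraries, whereas the differentiated-tubule gene UMOD had 0 counts in all of them and PAX8 had at most 2 counts in any library.

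The targeted genes were examined first. KDM6A (chromosome X, 44873177 to 45112602, plus strand, GRCh38) was at 10.3 and 11.5 CPM in the sgKDM6A libraries and at 53.7 and 50 CPM in the sgKDM5C libraries. WT libraries were at 54.2 and 61.2 CPM, so the transcript was low only in the 2 libraries labelled for it among the 8 (log2 difference 2.24 ± 0.13, adjusted p = 1.29e-07). KDM5C (chromosome X, 53191321 to 53225422, minus strand) was at 331 and 312 CPM in sgKDM5C and 379 and 387 CPM in sgKDM6A, against 440.4 and 471 CPM in WT. Its transcript was thus lowest in the sgKDM5C libraries but still abundant there (log2 difference -0.25 ± 0.08, adjusted p = 0.0456). That call was lost in 9 of 16 alternative analyses, including each one that left out a compared library (adjusted p from 0.0909 to 0.254). Gene-level counts do not show whether the remaining transcript is intact, so KDM5C RNA gives only a weak check of the label.

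Among the relatives, KDM5B, another H3K4 demethylase, was at 136 and 143 CPM in sgKDM5C and 101 and 111 CPM in sgKDM6A (log2 difference 0.39 ± 0.12, adjusted p = 0.0394), and this call was lost when each of the 4 compared libraries was left out in turn (adjusted p from 0.0763 to 0.228) and without sgKMT2B replicate 1 (0.0546). KDM6B, the other active H3K27 demethylase of the family, was lower than WT in both knockouts, at 47.6 and 65.7 CPM in sgKDM5C, 38.8 and 47.7 CPM in sgKDM6A and 84.5 and 86.8 CPM in WT. The knockouts' own difference in KDM6B did not pass the test (log2 difference 0.39 ± 0.16, adjusted p = 0.107). KDM5A differed by -0.05 ± 0.12 (adjusted p = 0.8).

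**Figure D1:**
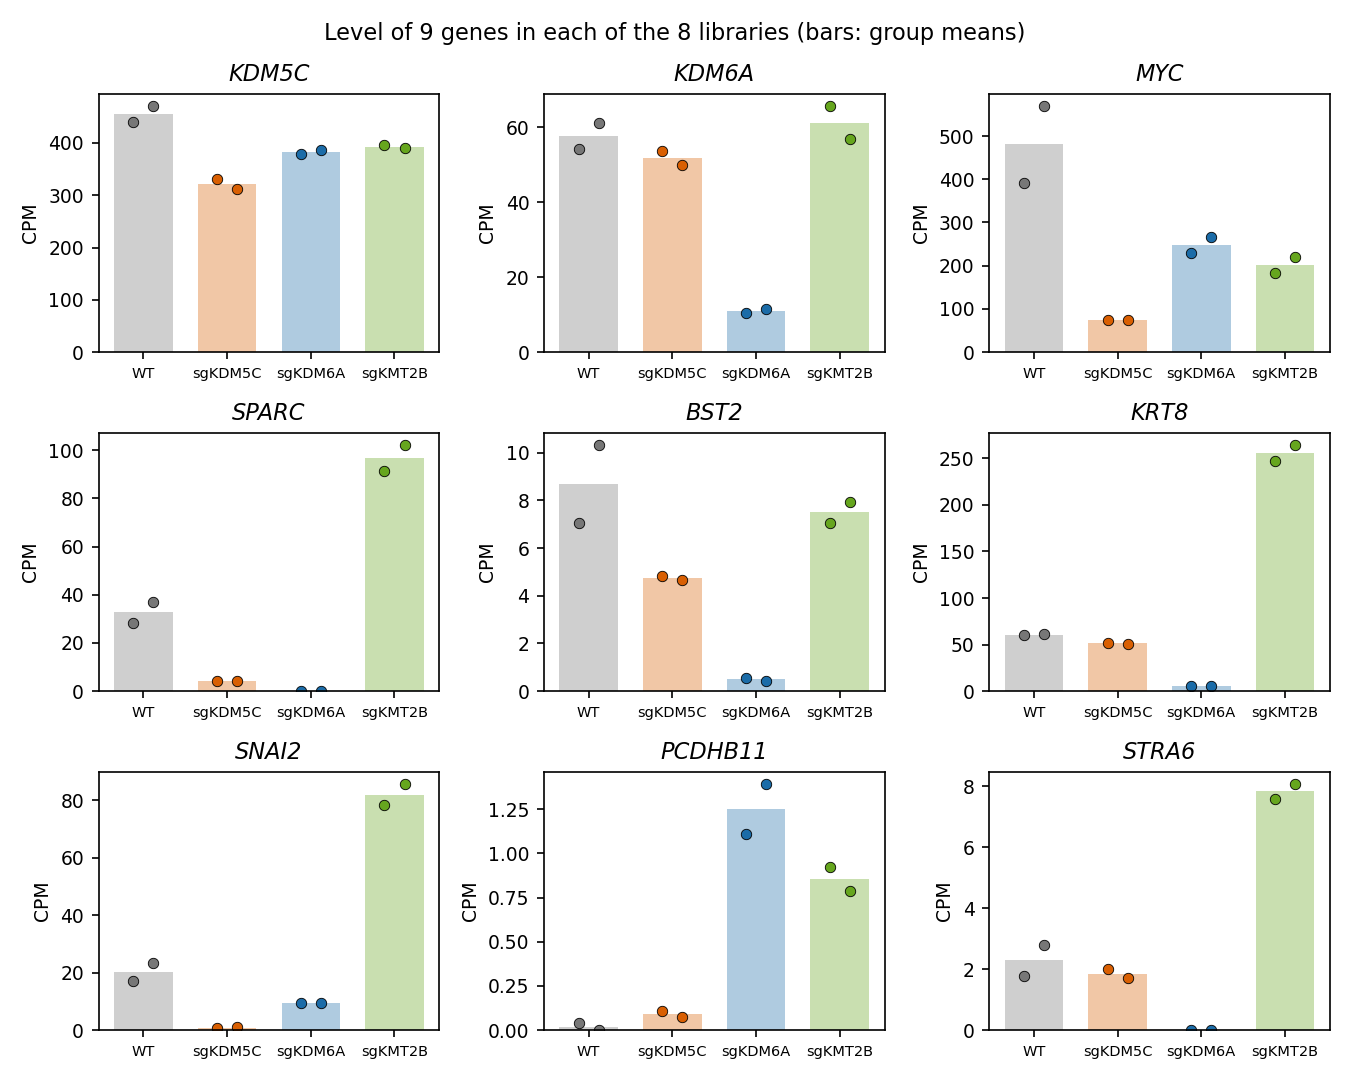
Level of 9 genes in CPM (linear axes from 0) in each of the 8 libraries; points are libraries and bars are group means of 2. KDM6A is low in sgKDM6A alone (10.3 and 11.5 CPM), whereas KDM5C stays above 300 CPM in every library and MYC is lowest in sgKDM5C (74.8 and 74.4 CPM).

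Across all genes, 3468 of 17527 were called, which is 19.8%. Of these, 1915 (10.9%) were higher in sgKDM5C and 1553 (8.86%) were higher in sgKDM6A. These shares of all genes are the background for the list counts below. Differences of at least 2-fold were more lopsided, with 812 genes (4.63%) higher in sgKDM5C and 305 (1.74%) higher in sgKDM6A. The 2 libraries of the groups did not overlap for 10573 genes (60.3%), so non-overlap alone says little here. The median of all tested genes was 0.01. Without WT replicate 2 the balance of the calls turned, with 2068 genes higher in sgKDM5C and 2090 higher in sgKDM6A. Counts of calls depended on which libraries were in the fit. They fell when any of the 4 compared libraries was left out, most without sgKDM6A replicate 1, and less without either sgKMT2B replicate. They rose without either WT replicate.

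The direction of the calls moved with expression level. Among 2834 genes with a mean of 1 to 5 CPM, 367 (12.9%) were higher in sgKDM5C and 123 (4.34%) higher in sgKDM6A. Among 2255 genes above 100 CPM the order was the opposite, with 210 (9.31%) higher in sgKDM5C and 406 (18.0%) higher in sgKDM6A. Scaling by library totals only narrowed the difference in the abundant class to 266 against 314 genes, and upper-quartile scaling gave 242 against 358. The lower class stayed at 383 against 112 and 373 against 116 under the same scalings.

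**Figure D2:**
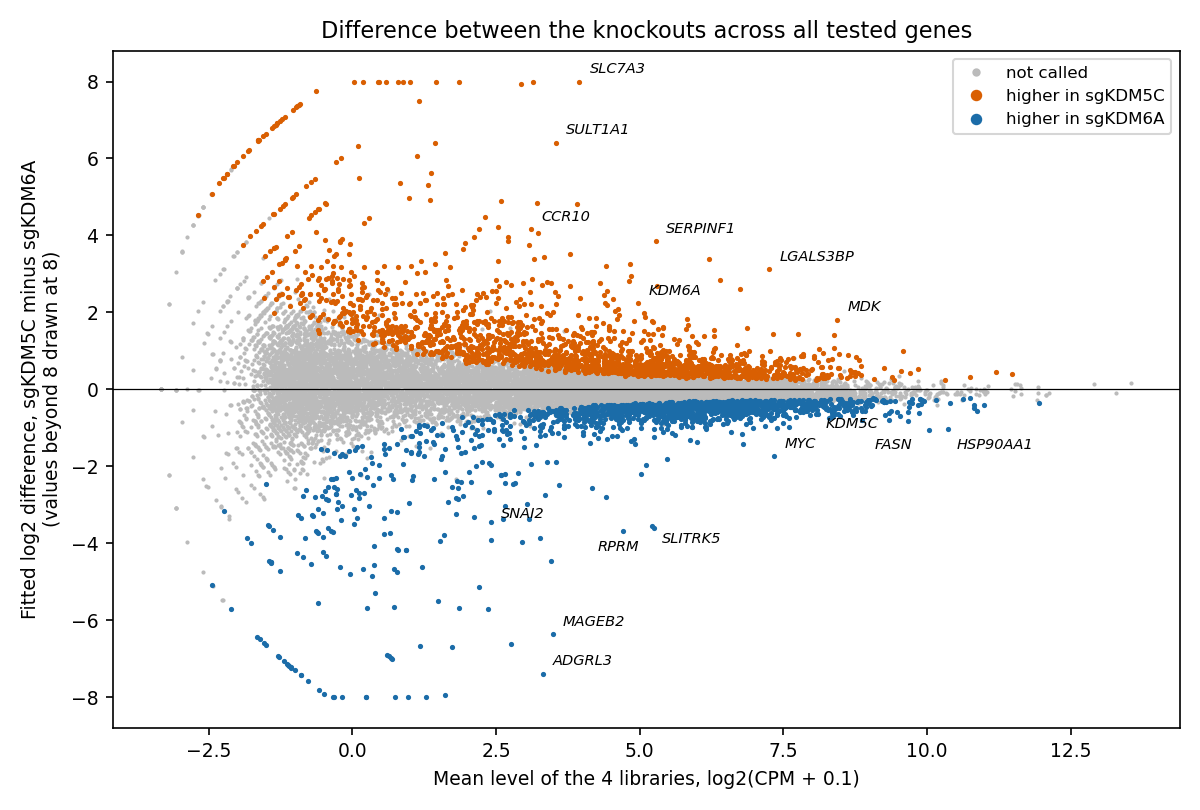
Fitted log2 difference (sgKDM5C minus sgKDM6A, values beyond 8 drawn at 8) against the mean level of the 4 libraries as log2(CPM + 0.1) for 17527 genes; orange points are called genes higher in sgKDM5C, blue points called genes higher in sgKDM6A, grey points not called. Blue points are the more frequent at the right (406 against 210 above 100 CPM) and orange points at 1 to 5 CPM (367 against 123).

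Blocks of neighbouring genes differed together, and this touches many of the gene groups below. Taking the genes whose mean reached 5 CPM, the median difference in bins of 20 Mb exceeded 0.2 in size in parts of 8 autosomes and in the first bin of X. On chromosome 9 from 60 to 140 Mb, 188 of 351 genes were higher in sgKDM6A and 16 in sgKDM5C (median -0.42). There the median against WT was -0.01 in sgKDM5C and 0.39 in sgKDM6A, so the shift lay in the sgKDM6A libraries. The block on chromosome 3 from 100 to 160 Mb held 117 of 187 genes higher in sgKDM5C (median 0.53), with medians against WT of 0.00 in sgKDM5C and -0.50 in sgKDM6A. On chromosome 18 from 40 to 80 Mb, 36 of 63 genes were higher in sgKDM6A (median -0.47), again with the shift from WT in sgKDM6A (0.54). Chromosome 2 from 0 to 80 Mb was the reverse case: 152 of 290 genes were higher in sgKDM6A (median -0.43), and the median against WT was -0.42 in sgKDM5C and 0.02 in sgKDM6A. Smaller blocks of genes higher in sgKDM5C lay on chromosome 1 from 60 to 120 Mb (80 of 203), chromosome 21 from 20 Mb on (47 of 100) and chromosome 10 from 120 Mb on (21 of 45). DNA copy number was not measured here, and its part in these blocks was not tested. The shifted bins held 2024 tested genes, of which 817 (40.4%) were called. Outside them 1526 of 15503 genes (9.84%) were higher in sgKDM5C and 1125 (7.26%) higher in sgKDM6A. Counts without these bins are given for some of the gene groups below. A count given alone includes genes in the bins and can change without them. For example, members higher in sgKDM5C and in sgKDM6A went from 9 and 5 to 7 and 3 in the ATF4 list. They went from 4 and 3 to 2 and 3 in the Polycomb list, and from 3 and 12 to 3 and 10 in the immediate early list. The bins were defined after the data had been seen.

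**Figure D3:**
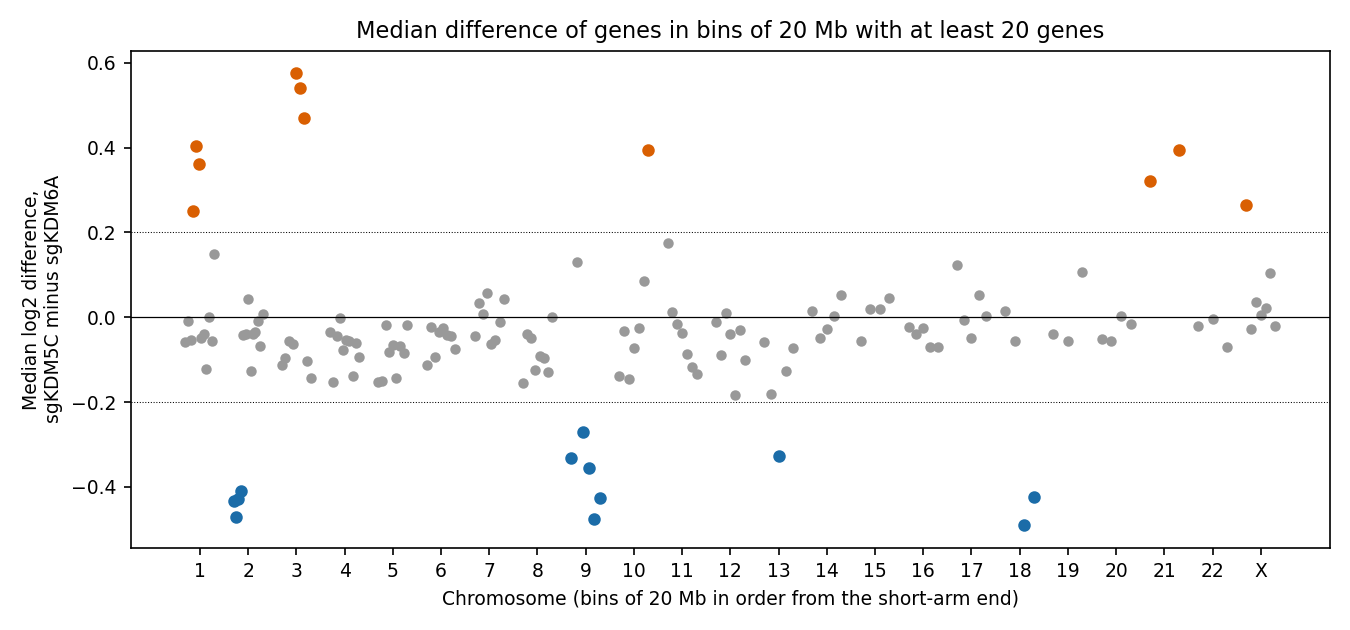
Median log2 difference (sgKDM5C minus sgKDM6A) of genes in bins of 20 Mb that hold at least 20 genes whose mean reached 5 CPM, by chromosome; dotted lines mark 0.2 in size, and coloured points lie beyond them. Neighbouring bins on chromosomes 2, 9 and 18 lie below the lower line, and those on chromosomes 1, 3 and 21 above the upper line.

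The largest differences were switches between detection and near absence. SLC7A3, a cationic amino acid transporter, was at 32 and 29.4 CPM in sgKDM5C and 30.8 and 26.5 CPM in WT, and had 0 counts in both sgKDM6A libraries. With 3 counts over the group taken as the floor, it was at least 545-fold lower in sgKDM6A (adjusted p = 1.49e-09). PUDP, a pseudouridine phosphatase (at least 308-fold), and STS, the steroid sulfatase (at least 94.1-fold), likewise had 0 counts in sgKDM6A. They are neighbours on chromosome X (PUDP at 7048920 to 7148190, STS at 7219456 to 7354810), where PUDP was at 17 and 17.7 CPM and STS at 5.43 and 5.18 CPM in sgKDM5C. SERPINB9, an inhibitor of granzyme B, was at 7.47 and 6.55 CPM in sgKDM5C and at 0 counts in sgKDM6A (at least 124-fold). WT and sgKMT2B expressed these 4 genes at levels close to those of sgKDM5C, so the absence was found in sgKDM6A alone.

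Other genes were nearly absent from sgKDM6A. ADM2, a calcitonin-family peptide, had 3 counts there against 809 in sgKDM5C, a ratio of 266 with a counting interval of 90.8 to 1294 (95%). SULT1A1, a phenol sulfotransferase with near-identical copies whose reads the counting could split, was at 20.4 and 25.3 CPM in sgKDM5C and 0.317 and 0.214 CPM in sgKDM6A (log2 difference 6.41 ± 0.25, adjusted p = 3.25e-09). SYTL5, a vesicle-trafficking protein, was at 32.2 and 25.6 CPM in sgKDM5C against 1.03 and 1 CPM in sgKDM6A (log2 difference 4.82 ± 0.22, adjusted p = 1.03e-08). SLC2A3, the neuronal-type glucose transporter GLUT3, was at 9.47 and 12.2 CPM in sgKDM5C against 0.555 and 0.607 CPM in sgKDM6A (log2 difference 4.21 ± 0.24, adjusted p = 1.18e-07). In each of these the sgKDM6A libraries lay far below all the others. TENM1, a teneurin adhesion receptor, differed in that sgKMT2B also lacked it: 6.52 and 12.1 CPM in sgKDM5C, 0.555 and 0.286 in sgKDM6A, whereas sgKMT2B had 0.321 and 0.0788 CPM (log2 difference 4.47 ± 0.42, adjusted p = 9.22e-06). Of the 15 largest differences higher in sgKDM5C, 5 were X-linked, namely SLC7A3, PUDP, STS, SYTL5 and TENM1. Of all 593 tested X-linked genes, 98 (16.5%) were higher in sgKDM5C and 53 (8.94%) in sgKDM6A. On all other chromosomes the shares were 10.8% and 8.96%. PUDP and STS lie in the shifted first bin of X, and 3 of the 5 genes lie outside it. Outside that bin 81 of 538 X-linked genes (15.1%) were higher in sgKDM5C, beside 9.84% of all genes outside shifted bins.

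A few of the largest differences also held a gain over WT in sgKDM5C. CCR10, a chemokine receptor, was at 16.2 and 16.1 CPM in sgKDM5C, 0.674 and 1.11 CPM in sgKDM6A and 1.4 and 2.01 CPM in WT (log2 difference 4.16 ± 0.29, adjusted p = 5.2e-07). Its neighbour on chromosome 17, RAMP2, a partner of the calcitonin-like receptor, was at 17.4 and 18.1 CPM in sgKDM5C, 0.555 and 0.679 CPM in sgKDM6A and 7.97 and 7.67 CPM in WT (log2 difference 4.83 ± 0.23, adjusted p = 1.86e-08). Against WT, RAMP2 differed by 1.18 in sgKDM5C and by -3.65 in sgKDM6A, so most of its difference was a low level in sgKDM6A. ZNF503-AS1, an antisense RNA whose reads cannot be told apart from those of its sense partner without a stated strand setting, was at 8.74 and 8.44 CPM in sgKDM5C and under 1 CPM in the other 6 libraries (log2 difference 4.17 ± 0.36, adjusted p = 4.26e-06). MFAP4, an elastic-fibre protein, was at 12.5 and 10.2 CPM in sgKDM5C, 0.555 and 0.214 in sgKDM6A, beside 3.35 and 4.61 in WT (log2 difference 4.89 ± 0.33, adjusted p = 4.72e-07). It was thus above WT in sgKDM5C (log2 difference 1.53) and further below it in sgKDM6A (-3.36).

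In the opposite direction, several genes were high in sgKDM6A. RPRM, a p53-responsive cell cycle inhibitor, was at 53.5 and 43.1 CPM in sgKDM6A and 4.22 and 3.33 CPM in sgKDM5C, against 1.03 and 1.95 CPM in WT (log2 difference -3.67 ± 0.26, adjusted p = 6.57e-07). PLXDC2, a plexin-domain membrane protein, was at 18.3 and 17.4 CPM in sgKDM6A and at most 1.38 CPM in the other 6 libraries (log2 difference -3.86 ± 0.27, adjusted p = 5.32e-07). For both genes the high level belonged to sgKDM6A alone. MMP16, a membrane-bound metalloprotease, was instead low in sgKDM5C, at 0.219 and 0.265 CPM, with 7.1 and 10.4 CPM in sgKDM6A and 4.79 and 5.26 CPM in WT (log2 difference -5.15 ± 0.37, adjusted p = 6.78e-07), and sgKMT2B was lower still at 0.0402 and 0.118 CPM. PREX2, a Rac exchange factor, had 5.43 and 8.33 CPM in sgKDM6A and 0.219 and 0.0378 CPM in sgKDM5C (log2 difference -5.68 ± 0.51, adjusted p = 5.59e-06). RRN3 and HSPA1B came under the same rule through 1 library each. RRN3, a polymerase I initiation factor with related copies, was at 10.1 and 0.75 CPM in sgKDM6A, and its call was lost without replicate 1 (adjusted p = 0.447). HSPA1B, an inducible heat shock gene with the near-identical copy HSPA1A, was at 1.07 and 18.8 CPM in sgKDM6A, and its call was lost without replicate 2 (adjusted p = 0.0809).

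**Figure D4:**
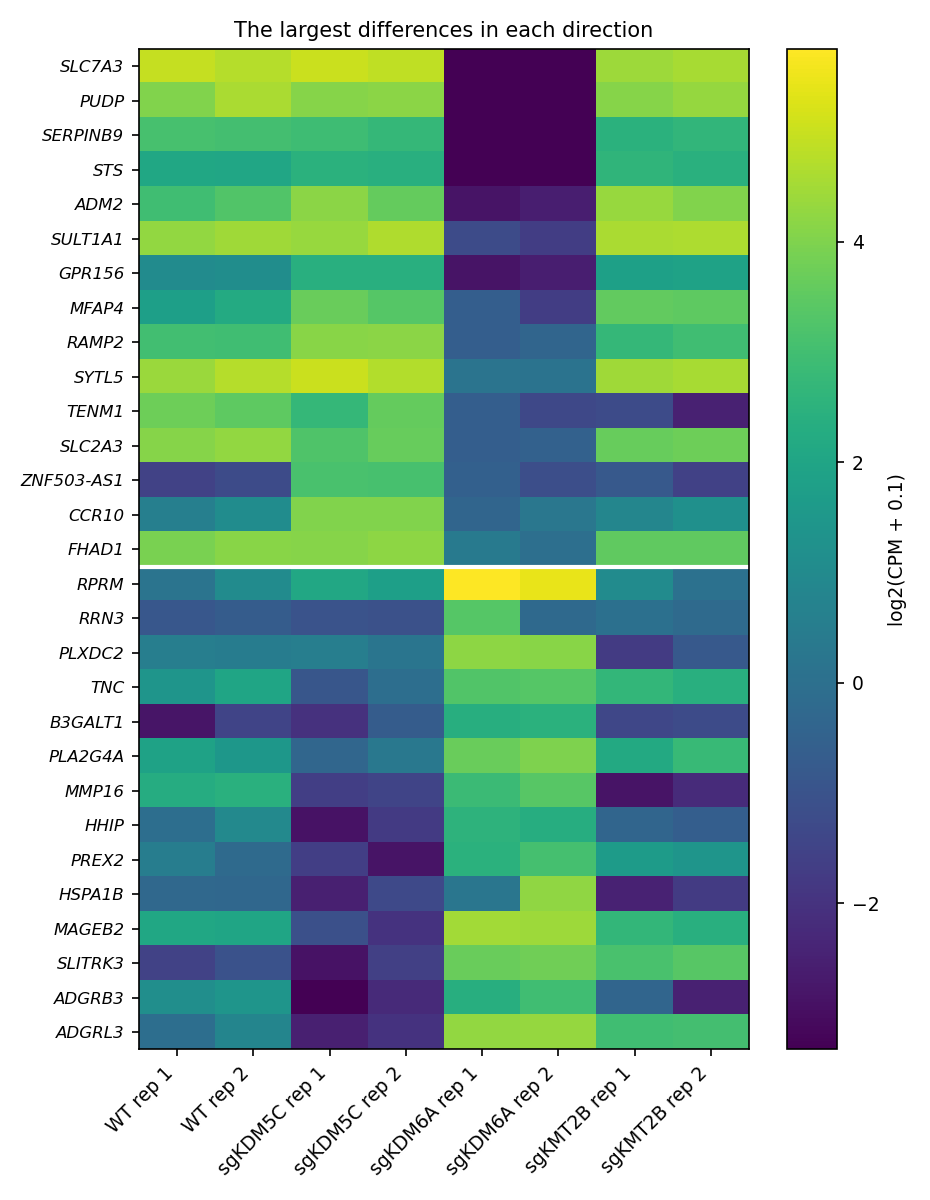
Level as log2(CPM + 0.1) of called genes with the largest differences (rows), 15 higher in sgKDM5C and 14 of the 15 higher in sgKDM6A, in the 8 libraries (columns); the white line divides genes higher in sgKDM5C (above) from genes higher in sgKDM6A (below). Most upper rows are dark in the 2 sgKDM6A columns only, and RRN3 and HSPA1B are bright in 1 sgKDM6A library each (10.1 and 18.8 CPM).

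Among abundant genes with at least 2-fold differences, FASN and HSP90AA1 led the genes higher in sgKDM6A, and MDK and UCHL1 were among those higher in sgKDM5C. MDK, the growth factor midkine, was at 534 and 540.1 CPM in sgKDM5C, 152 and 153 CPM in sgKDM6A and 292 and 275 CPM in WT (log2 difference 1.81 ± 0.09, adjusted p = 1.55e-08). USP9X, an X-linked deubiquitinase, was at 365 and 387 CPM in sgKDM5C against 176 and 191 CPM in sgKDM6A (log2 difference 1.04 ± 0.11, adjusted p = 2.71e-05). In the other direction, ENTR1 and CKS2 lay in the shifted part of chromosome 9, where ENTR1, an endosomal protein, was at 236 and 209 CPM in sgKDM6A against 114 and 109 CPM in sgKDM5C.

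The MYC network and ribosome biogenesis list, which holds MYC, its partners and factors that build ribosomes, had many members higher in sgKDM6A and none higher in sgKDM5C. Of 49 members listed, all were tested, and 32 (65.3%) were higher in sgKDM6A and 0 in sgKDM5C, beside 8.86% and 10.9% of all genes. The list median was -0.41 beside 0.01 for all genes. Outside the shifted bins the counts were 29 and 0 of 44. MYC itself was at 74.8 and 74.4 CPM in sgKDM5C, 229 and 268 CPM in sgKDM6A and 392 and 569.9 CPM in WT (log2 difference -1.73 ± 0.15, adjusted p = 5.03e-06). It was thus below WT in both knockouts and lowest in sgKDM5C, with no overlap among the 3 groups. SRM, the spermidine synthase, was at 267 and 244 CPM in sgKDM5C against 394 and 394 CPM in sgKDM6A (log2 difference -0.62 ± 0.09, adjusted p = 0.000461), and GNL3, the nucleolar protein nucleostemin, at 94.7 and 110.0 CPM in sgKDM5C against 156 and 162 CPM in sgKDM6A (log2 difference -0.64 ± 0.10, adjusted p = 0.000696). The called members other than MYC differed little in size, from -0.90 for WDR43 to -0.28 for IMPDH2, the last of which was named after its value was seen. Against WT, where 11.5% of all genes were lower in sgKDM5C and 12.6% higher in sgKDM6A, 20 members were lower in sgKDM5C and 16 higher in sgKDM6A, and both comparisons share the WT libraries. The count higher in sgKDM6A fell when any compared library was left out. Calls over all genes fell under the same omissions, so a lost call does not show that a single library carried it. In the 250 bases before the RefSeq start (GRCh38.p14), the E-box letters CACGTG, which read the same on both strands, occurred in 3 of 28 called members with a promoter entry, in 4 of 13 members not called, and in 8.75% of all tested genes.

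Few genes of cytosolic ribosomal proteins, which are usually regulated together, were called. Of 78 listed and tested members, 8 were higher in sgKDM6A and 1 in sgKDM5C, shares of 10.3% beside 8.86% of all genes for the former and 1.28% beside 10.9% for the latter. Outside the shifted bins only 3 of 69 were called, all higher in sgKDM6A. RPS7 (768 and 707 CPM in sgKDM5C, 1144 and 1118 in sgKDM6A) and RPS27A (486 and 535 CPM in sgKDM5C, 769 and 805 in sgKDM6A) lie in the low part of chromosome 2, and RPL35 (1532 and 1493 CPM in sgKDM5C, 2294 and 2181 in sgKDM6A) in the shifted part of chromosome 9. RPS6, at 2729.7 and 2748 CPM in sgKDM5C and 2035 and 1951 CPM in sgKDM6A, went against the median of its chromosome 9 bin from 0 to 20 Mb, -0.33 (log2 difference 0.46 ± 0.07, adjusted p = 0.000447). It starts at 19375715, near the edge of that bin, and the next bin, from 20 to 40 Mb, had a median of 0.13. The count was not stable to the other groups in the fit: it was 21 without WT replicate 1, 23 without WT replicate 2 and 5 without sgKDM6A replicate 2.

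Cholesterol and fatty acid synthesis genes were also higher in sgKDM6A. All but 1 of 37 listed members were tested, and 17 (47.2%) were higher in sgKDM6A and 4 (11.1%) in sgKDM5C (list median -0.33). The shares of all genes were 8.86% and 10.9%. FASN, the fatty acid synthase, was at 646 and 706 CPM in sgKDM5C, 1387 and 1440.1 CPM in sgKDM6A and 1083 and 1031 CPM in WT (log2 difference -1.06 ± 0.08, adjusted p = 1.75e-06). WT lay between the knockouts, which differed 2.09-fold. SCD, the stearoyl-CoA desaturase, was at 462 and 480.2 CPM in sgKDM5C against 782 and 867 CPM in sgKDM6A (log2 difference -0.81 ± 0.12, adjusted p = 0.000438), and DHCR7, which makes cholesterol in its last step, at 101 and 101 CPM in sgKDM5C against 169 and 179 CPM in sgKDM6A (log2 difference -0.78 ± 0.09, adjusted p = 4.3e-05). The polyunsaturated fatty acid desaturase FADS2 had the opposite order, with 147 and 138 CPM in sgKDM5C and 66.4 and 61.5 CPM in sgKDM6A (log2 difference 1.16 ± 0.10, adjusted p = 5.65e-06). Counts of members higher in sgKDM6A were 11 without sgKDM5C replicate 1 and 8 without sgKDM6A replicate 2.

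Heat shock genes were called more often as higher in sgKDM6A. Of 24 listed heat shock genes 21 were tested, with 10 (47.6%) higher in sgKDM6A and 2 (9.52%) in sgKDM5C (median -0.28). The shares of all genes were 8.86% and 10.9%. HSP90AA1, the inducible HSP90, was at 1787 and 1763 CPM in sgKDM6A, 889 and 859.5 in sgKDM5C and 1081 and 909 in WT (log2 difference -1.02 ± 0.09, adjusted p = 3.96e-06), so sgKDM6A stood apart. HSPD1, the mitochondrial chaperonin, was at 915 and 1033 CPM in sgKDM6A against 656 and 643 CPM in sgKDM5C (log2 difference -0.58 ± 0.08, adjusted p = 0.000344). The 2 members called higher in sgKDM5C encode small heat shock proteins. HSPB1 was at 130.1 and 139.5 CPM in sgKDM5C, 12.7 and 13 in sgKDM6A, beside 60.4 and 68.6 in WT (log2 difference 3.39 ± 0.12, adjusted p = 1.17e-09), above WT in the former and below it in the latter, and HSPB8 was at 7.58 and 7.76 CPM in sgKDM5C against 1.59 and 1.32 CPM in sgKDM6A (log2 difference 2.40 ± 0.23, adjusted p = 1.3e-05). The members higher in sgKDM6A numbered 6 without sgKDM5C replicate 2 and 5 without sgKDM6A replicate 2. Of 25 endoplasmic reticulum chaperones, 6 (24%) were higher in sgKDM6A and 0 in sgKDM5C, beside 8.86% and 10.9% of all genes. Outside the shifted bins the former count was only 3 of 22, among them CRELD2 (-0.69) and HYOU1 (-0.43). With all bins, it fell when any compared library was left out.

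Interferon-stimulated and innate sensing genes were more often higher in sgKDM5C. These genes answer virus-derived nucleic acids and interferon, and many carry in their promoters the interferon-stimulated response element, a pair of GAAA repeats bound by interferon regulatory factors and STAT complexes. Of 60 listed members 41 were tested, and 17 (41.5%) were higher in sgKDM5C and 1 (2.44%) in sgKDM6A (median 0.51, 16 and 1 of 37 outside the shifted bins). The shares of all genes were 10.9% and 8.86%. With each of the 4 compared libraries left out in turn, the count higher in sgKDM5C was 11 every time. The letters GAAA, any 2 bases and again GAAA, searched on both strands in the 250 bases before the RefSeq start (GRCh38.p14), occurred in 3.07% of 27305 promoters and in 2.08% of the promoters of 12005 tested genes. They occurred in 9 of 14 called interferon members with a promoter entry and in 7 of 17 members not called, so the letters were frequent in the list whether or not a gene was called. The 4 windows shown are from called members whose promoters hold the letters, and were chosen after the values had been seen. Each is the strand of the gene, with the matched letters in capitals; the 2 matches of BST2 overlap.
IFITM1 (chr11:313980-314029, plus strand): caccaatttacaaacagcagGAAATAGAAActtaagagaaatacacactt
BST2 (chr19:17405725-17405780, minus strand): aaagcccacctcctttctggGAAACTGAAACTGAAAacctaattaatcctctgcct
IFITM3 (chr11:320866-320932, minus strand): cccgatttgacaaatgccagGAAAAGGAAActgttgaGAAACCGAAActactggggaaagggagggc
OAS3 (chr12:112938311-112938473, plus strand): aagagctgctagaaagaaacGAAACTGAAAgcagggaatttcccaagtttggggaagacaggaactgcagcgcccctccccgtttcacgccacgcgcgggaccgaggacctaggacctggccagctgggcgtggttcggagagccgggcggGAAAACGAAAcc
IFITM1, which blocks viral entry and whose match starts 40 bases before its start, was at 24 and 26.3 CPM in sgKDM5C, 2.66 and 1.72 in sgKDM6A, beside 35.2 and 22.7 in WT (log2 difference 3.53 ± 0.24, adjusted p = 5.2e-07). BST2, the tetherin that holds back budding virus, was at 4.84 and 4.65 CPM in sgKDM5C, 0.555 and 0.429 CPM in sgKDM6A and 7.06 and 10.3 CPM in WT (log2 difference 3.26 ± 0.30, adjusted p = 8.27e-06). In both genes the sgKDM6A libraries lay below all of the other 6. IFITM3, with 2 matches, was at 14.2 and 15.2 CPM in sgKDM5C and 3.92 and 4.18 CPM in sgKDM6A (log2 difference 1.86 ± 0.23, adjusted p = 9.89e-05), and OAS3, a sensor of double-stranded RNA with matches 143 and 12 bases before its start, at 31.2 and 29.2 and 14.9 and 16.4 CPM (log2 difference 0.95 ± 0.15, adjusted p = 0.000645).

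Sensors and effectors of the same list varied in their relation to WT. STING1, the adaptor of cytosolic DNA sensing, was at 5.28 and 4.09 CPM in sgKDM5C, 0.238 and 0 in sgKDM6A, 1.49 and 1.17 in WT and 14.7 and 16.8 in sgKMT2B (log2 difference 5.31 ± 0.51, adjusted p = 1.18e-05). PARP10, an interferon-responsive mono-ADP-ribosyltransferase, was at 10.1 and 11.8 CPM in sgKDM5C against 1.7 and 1.43 CPM in sgKDM6A (log2 difference 2.80 ± 0.23, adjusted p = 2.39e-06), with WT between them. IFIH1, the RNA sensor MDA5, was the single member higher in sgKDM6A and was named after its value was seen, at 3.49 and 3.18 CPM there and 1.46 and 1.17 CPM in sgKDM5C (log2 difference -1.34 ± 0.31, adjusted p = 0.00849). Against WT, where 11.1% of all genes were higher in sgKDM5C and 14.6% lower in sgKDM6A, 10 members were higher in sgKDM5C and 14 lower in sgKDM6A. Blood cell markers, which could carry such genes, summed to 12.9 and 13.1 CPM in sgKDM5C and to 7.65 and 6.57 CPM in sgKDM6A over 16 genes. Of their defining genes CD3E and HBB had 0 counts in all 8 libraries, and PTPRC had 0 in sgKDM5C and 2 in sgKDM6A replicate 1; their part in the interferon result was not tested.

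Collagen and extracellular matrix genes gave the largest number of members higher in sgKDM5C among the 33 lists, but not the largest share. Of 78 listed genes 69 were tested, with 28 (40.6%) higher in sgKDM5C and 5 (7.25%) in sgKDM6A (median 0.38, or 0.33 with near-absent genes at their bounds). The share higher in sgKDM5C was 10.9% of all genes, 42.9% in the kidney list and 41.5% in the interferon list. Outside the shifted bins the counts were 24 and 3 of 56, and without sgKDM5C replicate 1 the count higher in sgKDM6A was 2. SPARC, a collagen-binding matrix protein, had 220 counts in sgKDM5C and 3 in sgKDM6A, a ratio of 72.4 with a counting interval of 24.5 to 354, at 4.08 and 4.09 CPM in sgKDM5C, 28.3 and 37.2 CPM in WT and 91.5 and 102 CPM in sgKMT2B. SPARC was thus below WT in both knockouts compared and further below in sgKDM6A. FBLN1, a fibulin of elastic fibres, was at 307 and 326 CPM in sgKDM5C against 111 and 121 CPM in sgKDM6A (log2 difference 1.45 ± 0.09, adjusted p = 2.65e-07). COL6A2, a chain of type VI collagen on chromosome 21, was at 225 and 241 CPM in sgKDM5C against 87.4 and 86.1 CPM in sgKDM6A (log2 difference 1.43 ± 0.09, adjusted p = 3.53e-07), a larger difference than the median of its chromosome block (0.35). COL5A1, a fibrillar collagen chain on the shifted part of chromosome 9, was at 58.7 and 68 CPM in sgKDM5C against 22.3 and 19.7 CPM in sgKDM6A (log2 difference 1.59 ± 0.13, adjusted p = 1.97e-06), against the direction of its block. TNC, the adhesion-modulating tenascin-C, was the largest exception, at 9.59 and 10.1 CPM in sgKDM6A and 0.437 and 0.87 CPM in sgKDM5C (log2 difference -3.91 ± 0.33, adjusted p = 3.03e-06). Against WT, 37 members were lower in sgKDM6A and 18 in sgKDM5C, beside 14.6% and 11.5% of all genes. Fibroblast and endothelial markers, 17 genes, summed to 39.0 and 41.1 CPM in sgKDM5C, 31.3 and 28.6 CPM in sgKDM6A and 61.4 to 64.4 CPM in WT, most of it from COL1A1. Of the 10 tested, 8 had differences above 0 and 2 were called, both higher in sgKDM5C. COL1A1 differed by 0.38 (adjusted p = 0.0464), a call lost in 9 of 16 alternatives, including each that left out a compared library. COL3A1, a fibrillar collagen, was at 1.86 and 1.1 CPM in sgKDM5C, 0.0793 and 0.107 CPM in sgKDM6A and 40.3 and 46.1 CPM in sgKMT2B (log2 difference 3.91 ± 0.46, adjusted p = 5.99e-05). Both called genes are also on the matrix list and lay in the direction of most of its called members. The markers' part in the matrix result was not tested. The endothelial genes PECAM1 and CDH5 were at 0 to 3 counts in each of the 4 libraries.

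Epithelial keratin and junction genes were likewise more often higher in sgKDM5C, with 10 of 27 tested members (42 listed) against 1 higher in sgKDM6A (median 0.47). These were shares of 37.0% and 3.70%, beside 10.9% and 8.86% of all genes. KRT8, a keratin of simple epithelia, was at 51.6 and 50.8 CPM in sgKDM5C, 5.15 and 5.61 in sgKDM6A, 59.9 and 61.3 in WT and 247 and 265 in sgKMT2B (log2 difference 3.25 ± 0.11, adjusted p = 1.17e-09). The sgKDM5C and WT libraries lay close together, and the sgKDM6A libraries 9.5-fold below sgKDM5C. JUP, the junction protein plakoglobin, was at 208 and 203 CPM in sgKDM5C against 107 and 99.8 CPM in sgKDM6A (log2 difference 0.99 ± 0.10, adjusted p = 1.6e-05), and CDH3, P-cadherin, at 5.06 and 6.92 CPM in sgKDM5C against 1.82 and 2.11 CPM in sgKDM6A (log2 difference 1.60 ± 0.25, adjusted p = 0.000634). Without sgKDM6A replicate 1 the count higher in sgKDM5C was 6.

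Mesenchymal and EMT genes, the markers and drivers of epithelial-to-mesenchymal transition, changed in both directions. Of 33 tested (38 listed), 9 (27.3%) were higher in sgKDM5C and 6 (18.2%) in sgKDM6A, beside 10.9% and 8.86% of all genes. SNAI2, a repressor that drives the transition, was at 0.728 and 1.02 CPM in sgKDM5C, 9.55 and 9.58 in sgKDM6A, 17 and 23.3 in WT and 78.3 and 85.8 in sgKMT2B (log2 difference -3.45 ± 0.23, adjusted p = 3.53e-07). It was below WT in both knockouts, more so in sgKDM5C. MMP2, a gelatinase, was at 34 and 35.7 CPM in sgKDM5C against 6.07 and 8.5 CPM in sgKDM6A (log2 difference 2.25 ± 0.17, adjusted p = 1.22e-06), and LOXL1, a crosslinking oxidase, at 27.7 and 24.8 CPM in sgKDM5C against 9.87 and 8.68 CPM in sgKDM6A (adjusted p = 1.31e-05). The metalloprotease MMP16, described above, is also on this list and had the opposite order to MMP2, with a difference of -5.15.

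YAP and TEAD targets, which report on Hippo signalling, included 10 members (37.0%) higher in sgKDM5C and 2 (7.41%) higher in sgKDM6A of 27 tested (30 listed, median 0.19). The shares of all genes were 10.9% and 8.86%, and outside the shifted bins the counts were 8 and 2 of 23. The count higher in sgKDM6A fell when any of the compared libraries was left out. CCN2, the classic target, was at 20.8 and 17.3 CPM in sgKDM5C, 4.76 and 3.5 in sgKDM6A, beside 24.4 and 27 in WT (log2 difference 2.21 ± 0.18, adjusted p = 2.45e-06). AJUBA, a scaffold that restrains the kinase LATS, was at 88.3 and 70.9 CPM in sgKDM5C against 43 and 37.9 CPM in sgKDM6A (log2 difference 0.98 ± 0.13, adjusted p = 0.000191), and GAS6, a ligand of the receptor AXL, at 37.3 and 34.9 CPM in sgKDM5C against 15.9 and 15.1 CPM in sgKDM6A (log2 difference 1.22 ± 0.14, adjusted p = 5.16e-05). AMOTL2 differed by 1.28 and lies in the shifted block of chromosome 3. CCN2 and GAS6 were near WT in sgKDM5C and below it in sgKDM6A, whereas AJUBA was above WT in sgKDM5C.

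Immediate early and MAPK response genes, which are switched on within minutes of growth factor signalling or feed back on it, were more often higher in sgKDM6A. Of 46 tested (48 listed), 12 (26.1%) were higher in sgKDM6A and 3 (6.52%) in sgKDM5C (median -0.13), beside 8.86% and 10.9% of all genes. ETV4 and ETV1, ETS factors induced by ERK signalling, were at 14.3 and 12.6 CPM and 10.2 and 5.15 CPM in sgKDM6A, and at 2.44 and 4.62 CPM and 0.983 and 0.53 CPM in sgKDM5C, with differences of -1.93 ± 0.28 (adjusted p = 0.000332) and -3.33 ± 0.39 (adjusted p = 5.51e-05). The ERK inhibitor SPRED2 was at 37.3 and 30.3 CPM in sgKDM6A against 15.3 and 13.8 CPM in sgKDM5C (log2 difference -1.21 ± 0.17, adjusted p = 0.000288), but it lies in the low block of chromosome 2. DUSP2, a nuclear ERK phosphatase, ran the other way, at 4.88 and 4.88 CPM in sgKDM5C and under 1 CPM in each of the other 6 libraries (log2 difference 5.62 ± 0.56, adjusted p = 1.6e-05). ETV5, named after its value was seen, was at 15.1 and 5.86 CPM in sgKDM6A and 2.77 and 1.1 CPM in sgKDM5C (log2 difference -2.43 ± 0.52, adjusted p = 0.00493). The sgKDM6A replicates of ETV1 and ETV5 differed from each other about as much as many called genes differ between groups, and the count higher in sgKDM6A was 7 without either sgKDM5C replicate and 5 without sgKDM6A replicate 1.

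Neuronal adhesion and axon guidance genes, among which KDM5C targets are often sought, were more often higher in sgKDM6A. Of 79 listed 58 were tested, with 21 (36.2%) higher in sgKDM6A and 9 (15.5%) in sgKDM5C (median -0.26). Both shares were above those of all genes, 8.86% and 10.9%. Outside the shifted bins the counts were 19 and 8 of 54. SLITRK5, a synaptic adhesion protein, was at 66.1 and 70.5 CPM in sgKDM6A, 5.1 and 6.43 in sgKDM5C and 14.3 and 16 in WT (log2 difference -3.57 ± 0.16, adjusted p = 8.53e-09). ADGRL3, a latrophilin, was at 19.1 and 20 CPM in sgKDM6A, 0.0728 and 0.151 CPM in sgKDM5C and 0.868 and 1.62 CPM in WT (log2 difference -7.39 ± 0.36, adjusted p = 1.87e-08), and PCDH10, a non-clustered protocadherin, at 67.7 and 71.1 CPM in sgKDM6A, 19.1 and 20.6 CPM in sgKDM5C and 33.6 and 33.3 CPM in WT (log2 difference -1.80 ± 0.12, adjusted p = 2.92e-07). In all 3 genes sgKDM6A was above WT and sgKDM5C below it, and sgKMT2B was also above WT for SLITRK5 (32.2 and 37.5 CPM) and ADGRL3 (7.75 and 8.08 CPM). SLITRK3, another of this family, was at 12.7 and 13.8 CPM in sgKDM6A, 0.0364 and 0.227 in sgKDM5C and also high in sgKMT2B at 8.68 and 10.4 CPM (log2 difference -6.62 ± 0.39, adjusted p = 1.44e-07). ADGRB3, a synaptic receptor outside the list, had 342 counts in sgKDM6A and 3 in sgKDM5C, a ratio of 115 with a counting interval of 39.2 to 563. Against WT, 16 members were higher in sgKDM6A and 17 lower in sgKDM5C, beside 12.6% and 11.5% of all genes. Without sgKDM5C replicate 2 or sgKDM6A replicate 1, the count higher in sgKDM5C was 5.

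The clustered protocadherins, cell-surface isoforms that give neurons their identity, showed the same order at far lower levels. Of 53 listed genes 43 had any count and 15 passed the filter. Since a gene could pass through the group in which it is high, the counts among these 15 are a description only. Among them 8 genes were higher in sgKDM6A and 0 in sgKDM5C, and the count was also 8 with no filter on low counts. PCDHB11 was at 1.11 and 1.39 CPM in sgKDM6A and 0.109 and 0.0757 CPM in sgKDM5C (log2 difference -3.69 ± 0.66, adjusted p = 0.00155), PCDHB14 at 1.31 and 0.715 CPM in sgKDM6A against 0.146 and 0 CPM in sgKDM5C (log2 difference -3.68 ± 0.86, adjusted p = 0.0088), and PCDHB15 at 1.63 and 1.18 CPM in sgKDM6A against 0.291 and 0.0378 CPM in sgKDM5C (log2 difference -3.04 ± 0.70, adjusted p = 0.00823). PCDHA10 was at least 12.8-fold lower in sgKDM5C, with 0 counts there and 38 in sgKDM6A. The WT libraries were at or under 0.26 CPM for these 4 genes, so sgKDM5C was near WT and sgKDM6A above it; sgKMT2B was also above WT for the 3 PCDHB genes, for example at 0.924 and 0.788 CPM for PCDHB11. The count fell to 4 without sgKDM5C replicate 2, to 5 without sgKDM5C replicate 1 and to 2 without sgKDM6A replicate 1, and it was 0 when only genes whose mean reached 1 CPM were tested.

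Neuronal cytoskeleton and vesicle genes gave 7 members (28%) higher in sgKDM6A and 2 (8%) in sgKDM5C of 25 tested (41 listed). The shares of all genes were 8.86% and 10.9%. NEFL, the light neurofilament, was at 17.7 and 18.9 CPM in sgKDM6A against 4.37 and 5.56 CPM in sgKDM5C (log2 difference -1.88 ± 0.19, adjusted p = 1.87e-05) and MAP2, a dendritic microtubule protein, at 4.52 and 4.29 CPM in sgKDM6A against 1.06 and 1.59 CPM in sgKDM5C (log2 difference -1.73 ± 0.35, adjusted p = 0.00327). The more abundant UCHL1, a neuronal deubiquitinase, was at 489 and 417 CPM in sgKDM5C and 234 and 196 CPM in sgKDM6A (log2 difference 1.07 ± 0.10, adjusted p = 1.2e-05), and VAMP2, a vesicle SNARE, at 75.9 and 81 CPM in sgKDM5C against 37.7 and 34.7 CPM in sgKDM6A (log2 difference 1.12 ± 0.12, adjusted p = 2.25e-05). Neuronal genes therefore did not all have 1 order between the knockouts. Without sgKDM5C replicate 2 or sgKDM6A replicate 1, 3 members were called higher in sgKDM6A, and 4 without sgKDM6A replicate 2.

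Germline and meiosis genes, a second set that KDM5C is known to restrain, were mostly too low to test: 19 of 59 listed passed the filter, 3 were higher in sgKDM5C (15.8%, beside 10.9% of all genes) and 1 in sgKDM6A (5.26%, beside 8.86%). Low genes could pass through the group in which they are high, so these counts are a description only. SMC1B, a meiotic cohesin, was at 4.15 and 6.77 CPM in sgKDM5C, 0.198 and 0.715 in sgKDM6A, beside 0.124 and 0.13 in WT (log2 difference 3.54 ± 0.48, adjusted p = 0.000192). MAJIN, which tethers telomeres to the nuclear envelope in meiosis, was at 2.59 and 1.74 CPM in sgKDM5C against 0.0793 and 0.107 CPM in sgKDM6A (log2 difference 4.46 ± 0.66, adjusted p = 0.000385), and SYCE2, a synaptonemal complex protein, at 7.36 and 6.09 CPM in sgKDM5C against 1.7 and 2.39 CPM in sgKDM6A (log2 difference 1.71 ± 0.29, adjusted p = 0.00101). For all 3 the sgKDM5C libraries were the highest of the 8. MAGEB2, an X-linked cancer-testis antigen, had the opposite order, at 22.4 and 21.4 CPM in sgKDM6A, 0.364 and 0.151 in sgKDM5C and 4.17 and 3.9 in WT (log2 difference -6.37 ± 0.30, adjusted p = 1.55e-08).

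Among cell cycle and p53 genes, CDKN1A, the inhibitor p21, was at 105 and 97.5 CPM in sgKDM5C, 39.1 and 37.9 in sgKDM6A, beside 90.9 and 115 in WT (log2 difference 1.39 ± 0.12, adjusted p = 5.61e-06). CCND1, the G1 cyclin D1, had the opposite order, at 10.3 and 12.9 CPM in sgKDM5C, 56.1 and 50.3 in sgKDM6A, beside 15.7 and 16.5 in WT (log2 difference -2.19 ± 0.15, adjusted p = 4.24e-07). In CDKN1A the sgKDM6A libraries lay below the other 6, while sgKMT2B was above WT at 171 and 201 CPM. In CCND1 they lay above the other 6, and sgKDM5C was also called lower than WT (log2 difference -0.47, adjusted p = 0.0385). Of 30 p53 targets, all tested, 9 (30%) were higher in sgKDM5C and 1 (3.33%), RPRM, in sgKDM6A (median 0.26). The shares of all genes were 10.9% and 8.86%. SPATA18 and PHLDA3 were at 15.6 and 19.2 CPM and 41 and 41.3 CPM in sgKDM5C, and at 6.34 and 5.32 CPM and 23.2 and 23.8 CPM in sgKDM6A, with differences of 1.58 and 0.81. Of 51 G2 and M phase genes 2 (3.92%) were higher in sgKDM5C and 4 (7.84%) in sgKDM6A, beside 10.9% and 8.86% of all genes. Outside the shifted bins the counts were 1 and 3 of 47. The count higher in sgKDM6A rose without either WT replicate and fell without sgKDM5C replicate 1 or either sgKDM6A replicate. The called members included MKI67 (0.51, in the shifted part of chromosome 10) and CKS2 (-1.01, in that of chromosome 9). Of the 22 cell cycle inhibitors and G1 cyclins, 6 (27.3%) were higher in sgKDM5C and 3 (13.6%) in sgKDM6A, beside 10.9% and 8.86% of all genes. Both list counts fell when any compared library was left out.

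Signalling ligands were among the larger differences. JAG1, a NOTCH ligand, was at 35.3 and 42 CPM in sgKDM5C, 8.01 and 7.29 in sgKDM6A, beside 26.2 and 27.5 in WT (log2 difference 2.34 ± 0.15, adjusted p = 2.3e-07), and DTX4, a NOTCH-linked ubiquitin ligase, at 2 and 2.38 CPM in sgKDM5C against 0.357 and 0.25 CPM in sgKDM6A (log2 difference 2.84 ± 0.46, adjusted p = 0.000752). The NOTCH target NRARP was higher in sgKDM6A, with 73.1 and 72.2 CPM in sgKDM6A against 56.3 and 54.2 CPM in sgKDM5C (log2 difference -0.39 ± 0.10, adjusted p = 0.0139), a call lost when each of the compared libraries was left out in turn (adjusted p from 0.0561 to 0.105). Of the 28 tested NOTCH genes 3 were higher in sgKDM5C and 2 in sgKDM6A, near the shares of all genes; the former count was 6 without either WT replicate, and the latter 0 when any 1 of the compared libraries was left out. Of 45 tested WNT genes (52 listed, median 0.15) 9 (20%) were higher in sgKDM5C and 2 (4.44%) in sgKDM6A, beside 10.9% and 8.86% of all genes. The count higher in sgKDM6A rose without WT replicate 2 and fell without sgKDM5C replicate 1 or either sgKDM6A replicate. The ligand WNT6 was at 7.98 and 11 CPM in sgKDM5C against 1.55 and 1.64 CPM in sgKDM6A (log2 difference 2.57 ± 0.27, adjusted p = 2.08e-05) and RNF43, which removes WNT receptors, at 5.65 and 4.99 CPM in sgKDM5C against 0.912 and 0.75 CPM in sgKDM6A (log2 difference 2.68 ± 0.27, adjusted p = 1.75e-05). SFRP1, a secreted WNT antagonist, went the other way with 114 counts in sgKDM6A and 2 in sgKDM5C, a ratio of 57.7 with a counting interval of 15.6 to 482.

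In the TGF-beta and BMP list 7 members (14.9%) were higher in each knockout (47 of 52 listed tested). The shares of all genes were 10.9% higher in sgKDM5C and 8.86% in sgKDM6A, and outside the shifted bins the counts were 5 and 4 of 40. The count higher in sgKDM6A was 2 to 4 without a compared library. BMP2, a BMP ligand named after its value was seen, had the largest called difference higher in sgKDM6A, at 1.35 and 2.14 CPM in sgKDM6A against 0.255 and 0.0757 CPM in sgKDM5C (log2 difference -3.35 ± 0.62, adjusted p = 0.00192). The activin subunit INHBB was at 19.6 and 18.3 CPM in sgKDM5C, 2.74 and 2.82 in sgKDM6A, beside 9.13 and 9.49 in WT (log2 difference 2.77 ± 0.19, adjusted p = 5.89e-07), above WT in the former and below it in the latter. INHBE, also an ATF4 target, was at 22.8 and 13.7 CPM in sgKDM5C against 2.22 and 1.14 CPM in sgKDM6A (log2 difference 3.45 ± 0.31, adjusted p = 6.42e-06), and GDF15, a stress-induced ligand, at 6.77 and 8.36 CPM in sgKDM5C against 2.62 and 2.32 CPM in sgKDM6A (log2 difference 1.62 ± 0.28, adjusted p = 0.00126). Among 38 genes of the ATF4 and amino acid response 9 (23.7%) were higher in sgKDM5C and 5 (13.2%) in sgKDM6A (median 0.03). The shares of all genes were 10.9% and 8.86%. Each list count rose or fell depending on which compared library was left out, and their order reversed without sgKDM5C replicate 1. Apart from SLC7A3, ADM2 and INHBE, NUPR1, a stress-induced chromatin protein, was at 7.39 and 4.01 CPM in sgKDM5C against 0.714 and 0.536 CPM in sgKDM6A (log2 difference 3.19 ± 0.36, adjusted p = 4.11e-05). The ATF4 list as a whole therefore had no single direction although 4 of its members were among the larger differences.

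Retinoic acid genes gave 5 members (26.3%) higher in sgKDM5C and 0 in sgKDM6A of 19 tested (23 listed), beside 10.9% and 8.86% of all genes. Outside the shifted bins the counts were 3 and 0 of 15. STRA6, the receptor that takes up retinol, was at 2 and 1.7 CPM in sgKDM5C and 1.78 and 2.79 CPM in WT and had 0 counts in sgKDM6A, at least 32.9-fold lower. CRABP2, which carries retinoic acid to the nucleus, was at 73.9 and 85.5 CPM in sgKDM5C against 45 and 44.3 CPM in sgKDM6A (log2 difference 0.84 ± 0.13, adjusted p = 0.000553). ALDH1A1, a retinal dehydrogenase, had 25 counts in sgKDM5C and 1 in sgKDM6A, a ratio of 24.7 with a counting interval of 4.04 to 1014, and its call was lost without sgKDM6A replicate 1 (adjusted p = 0.0664). The list count was 2 without sgKDM6A replicate 1 and 3 without replicate 2.

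Among kidney and lineage regulators, differences higher in sgKDM5C were the more frequent in the kidney list. Of 21 tested kidney genes (40 listed), 9 (42.9%) were higher in sgKDM5C and 2 (9.52%) in sgKDM6A, beside 10.9% and 8.86% of all genes. The list median was 0.59, but 0.11 among members whose mean reached 1 CPM. MEOX1, a homeobox factor, was at 2.51 and 2.19 CPM in sgKDM5C against 0.555 and 0.286 CPM in sgKDM6A (log2 difference 2.49 ± 0.42, adjusted p = 0.000999). GDNF, the ligand that induces ureteric bud growth, was at 3.75 and 4.43 CPM in sgKDM5C against 1.47 and 0.75 CPM in sgKDM6A (log2 difference 1.89 ± 0.39, adjusted p = 0.00389), EYA1, a nephron progenitor cofactor, at 11.6 and 9.01 CPM in sgKDM5C against 5.39 and 5.29 CPM in sgKDM6A (log2 difference 0.95 ± 0.18, adjusted p = 0.00261), and the endocytic receptor LRP2 at 57.4 and 64.2 CPM in sgKDM5C against 31.6 and 39.3 CPM in sgKDM6A (log2 difference 0.78 ± 0.13, adjusted p = 0.00108). Without sgKDM5C replicate 2 or sgKDM6A replicate 1 the first count was 4. Among 67 tested AP-2, SOX, PAX, FOX and related lineage factors, 11 (16.4%) were higher in sgKDM5C and 12 (17.9%) in sgKDM6A, beside 10.9% and 8.86% of all genes. Outside the shifted bins the counts were 8 and 9 of 55, and both list counts fell when any compared library was left out. GATA2, on the shifted block of chromosome 3, was at 116 and 110.1 CPM in sgKDM5C against 43.6 and 42.9 CPM in sgKDM6A (log2 difference 1.38 ± 0.10, adjusted p = 5.32e-07), and MSX2, a homeobox factor of BMP signalling, at 41.6 and 29.2 CPM in sgKDM5C against 82.4 and 58.1 CPM in sgKDM6A (log2 difference -0.99 ± 0.19, adjusted p = 0.00219). UTF1, a pluripotency-linked chromatin protein on chromosome 10, was at 35.6 and 40.6 CPM in sgKDM5C, 4.6 and 3.68 in sgKDM6A, whereas sgKMT2B had 1.61 and 2.48 CPM (log2 difference 3.20 ± 0.19, adjusted p = 1.54e-07). TFCP2L1, a naive-state factor, was at 21.7 and 28.3 CPM in sgKDM5C against 10.5 and 11.8 CPM in sgKDM6A (log2 difference 1.17 ± 0.16, adjusted p = 0.00018). The other 11 tested members of the pluripotency list held 1 more gene higher in sgKDM5C and 2 higher in sgKDM6A.

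The HOX genes are textbook targets of both the H3K4 and the H3K27 machinery. Of 39 listed 38 were tested, with 4 higher in sgKDM5C (10.5%, beside 10.9% of all genes) and 1 in sgKDM6A (2.63%, beside 8.86%). HOXB5 was at 34.3 and 34.4 CPM in sgKDM5C, 21.5 and 22.5 in sgKDM6A, 12.7 and 10.4 in WT and 3.58 and 2.88 in sgKMT2B (log2 difference 0.64 ± 0.15, adjusted p = 0.00769). It was above WT in both knockouts compared, and so was HOXC4 in sgKDM5C, at 38.5 and 40.9 CPM against 26.3 and 27 CPM in WT and 29.1 and 26.5 CPM in sgKDM6A (log2 difference 0.52 ± 0.12, adjusted p = 0.00889). HOXC12 had the largest difference of the 4, with 27 counts in sgKDM5C and 0 in sgKDM6A, at least 8.89-fold lower there (adjusted p = 0.0271). Each of the 4 calls higher in sgKDM5C was lost without at least 1 compared library; the count was 1 without sgKDM6A replicate 2 and 2 without sgKDM5C replicate 2 or sgKDM6A replicate 1. Against WT, 12 HOX genes were higher in sgKDM5C and 16 in sgKDM6A, beside 11.1% and 12.6% of all genes, with list medians of 0.47 and 0.46.

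The chromatin machinery of both marks showed modest differences. Of 30 tested Polycomb genes (33 listed), 4 were higher in sgKDM5C and 3 in sgKDM6A, close to the shares of all genes, and 2 were higher in sgKDM5C without either sgKDM6A replicate. The count higher in sgKDM6A was 0 without sgKDM5C replicate 1 and 1 without sgKDM5C replicate 2 or sgKDM6A replicate 1. BCOR, an X-linked subunit of variant PRC1, was at 212 and 209 CPM in sgKDM5C against 139 and 133 CPM in sgKDM6A (log2 difference 0.63 ± 0.10, adjusted p = 0.000494), and JARID2, a cofactor of PRC2, at 33.3 and 39.5 CPM in sgKDM5C against 51.5 and 56.4 CPM in sgKDM6A (log2 difference -0.57 ± 0.12, adjusted p = 0.00449), a call lost without sgKDM5C replicate 1 (adjusted p = 0.0587). RBBP7, a histone chaperone shared by PRC2, was at 342 and 338 CPM in sgKDM5C against 220.1 and 235 CPM in sgKDM6A (log2 difference 0.58 ± 0.08, adjusted p = 0.000367) and lies in the shifted first bin of X. Among 19 subunits of the H3K4 methyltransferase complexes 5 (26.3%) were higher in sgKDM6A and 0 in sgKDM5C, beside 8.86% and 10.9% of all genes. Outside the shifted bins the former count was 2 of 15, and it fell when any compared library was left out. WDR5, their shared core subunit, was at 147 and 139 CPM in sgKDM5C against 237 and 227 CPM in sgKDM6A (log2 difference -0.70 ± 0.10, adjusted p = 0.000346), in the shifted part of chromosome 9, and DPY30, another core subunit, at 30.7 and 28.2 CPM in sgKDM5C against 44.6 and 43.9 CPM in sgKDM6A (log2 difference -0.59 ± 0.14, adjusted p = 0.00782), in that of chromosome 2. PAXIP1 and MEN1 lost their calls without 3 of the 4 compared libraries each.

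Glycolysis and hypoxia genes had no common direction, with 6 (15.4%) of 39 tested higher in sgKDM5C and 5 (12.8%) in sgKDM6A, beside 10.9% and 8.86% of all genes. Outside the shifted bins the counts were 5 and 4 of 36. The count higher in sgKDM6A fell when any compared library was left out and rose without either WT replicate. ENO2, the neuronal enolase, was at 171 and 180.4 CPM in sgKDM5C, 58.5 and 57.8 in sgKDM6A, beside 118 and 115 in WT (log2 difference 1.60 ± 0.10, adjusted p = 2.17e-07). HK2, an inducible hexokinase on the low block of chromosome 2, was at 43.7 and 41.4 CPM in sgKDM5C against 76.4 and 77.7 CPM in sgKDM6A (log2 difference -0.86 ± 0.10, adjusted p = 4.83e-05), and PFKL, the liver phosphofructokinase on chromosome 21, at 381 and 402 CPM in sgKDM5C against 227 and 237 CPM in sgKDM6A (log2 difference 0.76 ± 0.09, adjusted p = 6.54e-05).

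**Figure D5:**
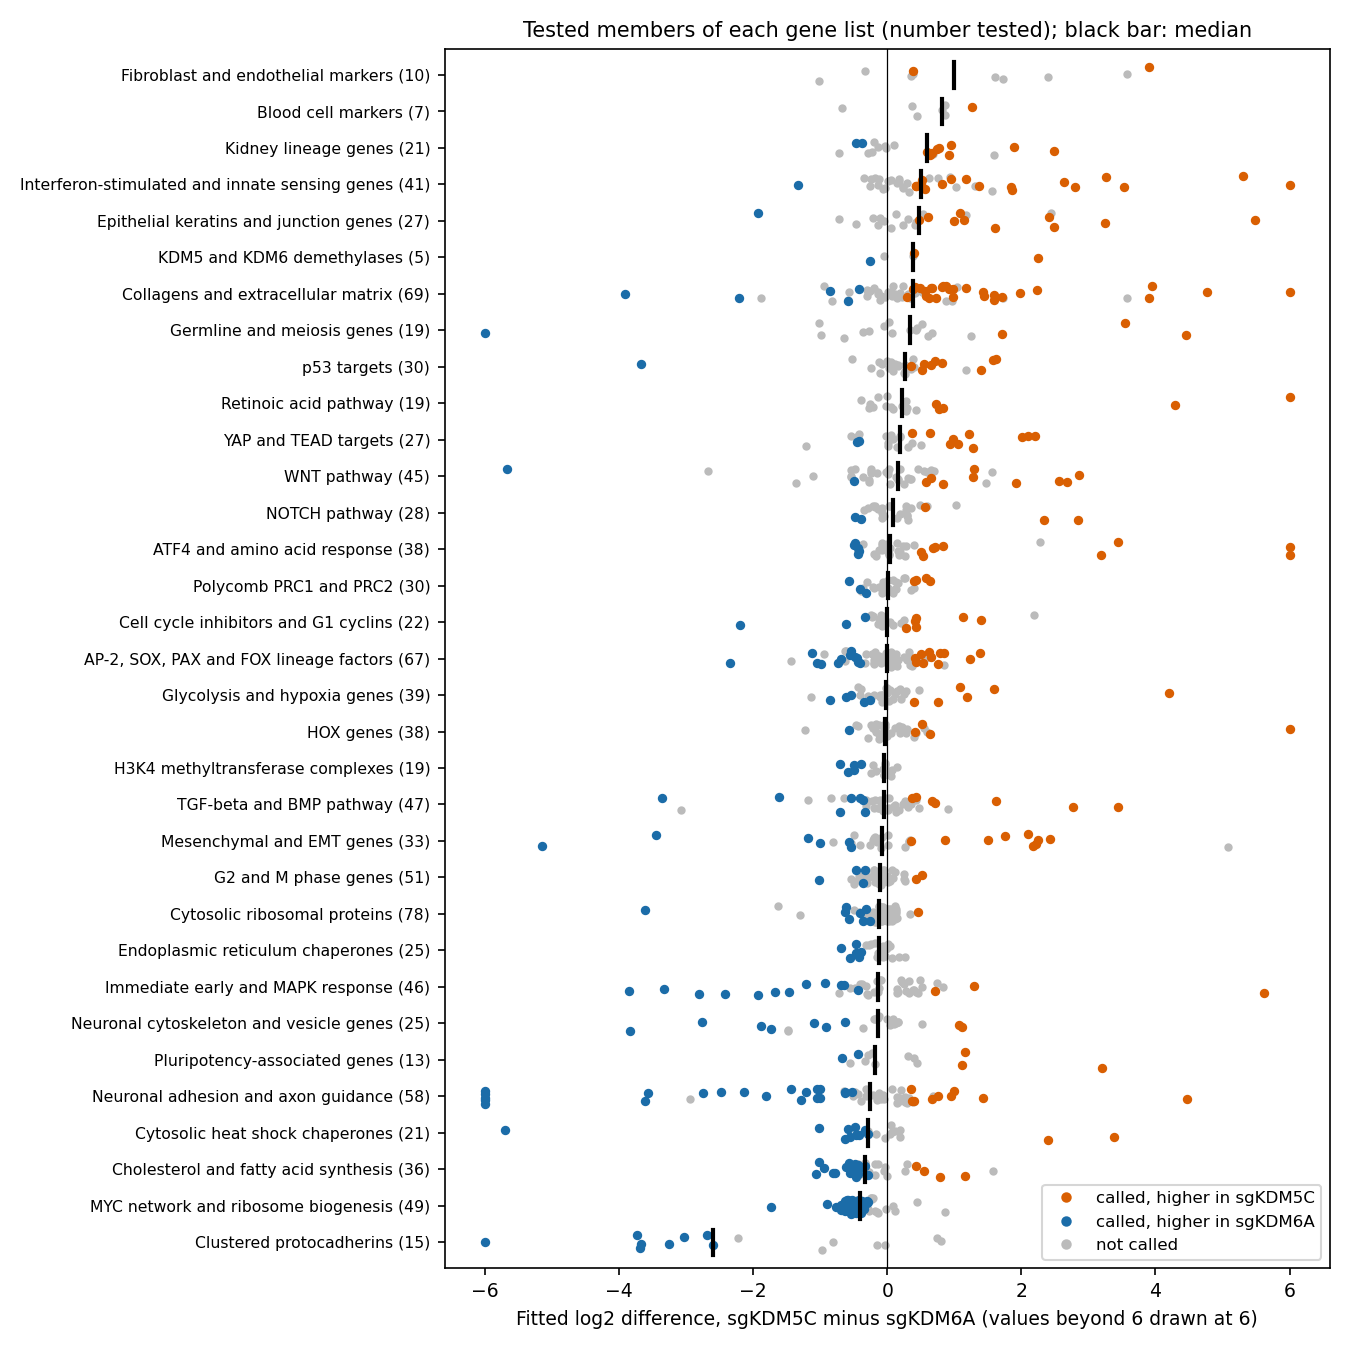
Fitted log2 difference (sgKDM5C minus sgKDM6A, values beyond 6 drawn at 6) of every tested member of 33 gene lists, with the number tested in brackets; orange points are called genes higher in sgKDM5C, blue points called genes higher in sgKDM6A, grey points not called, and black bars the list medians, which for lists of low genes rest on fitted values of near-absent genes. The MYC and ribosome biogenesis list is a tight blue group (32 of 49 called, median -0.41), and the collagen and matrix list spreads to the right (28 called higher in sgKDM5C).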

How the data were processed

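Poly(A) RNA of HEK293T cells was sequenced on an Illumina NovaSeq with paired reads, per the labels' protocols. The authors deposited raw read counts per gene, 1 column per library. Per the submitters' processing notes, reads were processed with STAR and HTSeq 0.11.2, with GRCh38 (hg38) as the build. For the STAR version, the annotation release and the strand setting nothing is stated, so overlapping, antisense and near-identical genes are uncertain. Of 60617 gene identifiers, 60596 had a symbol from a gene name table or from GENCODE v29, which gave coordinates on GRCh38. Counts were filtered with filterByExpr by group, scaled by TMM factors and fitted with edgeR 4.0.16 (R 4.3.3), with all 8 libraries in 1 quasi-likelihood model and 1 coefficient per group. The contrast was sgKDM5C minus sgKDM6A, with Benjamini-Hochberg adjustment over all 17527 tested genes. On simulated counts, 63, 64 and 66 of 17002 genes were given true log2 differences of 0.5, 1 and 2. The test called 22.2%, 60.9% and 83.3% of these, and 0.0416% of the 16809 unchanged genes. In the data 19.8% of genes were called, and the performance with so large a share of changed genes was not tested. Intervals and floors of 3 counts cover counting error only. Promoter letters are from RefSeq (GRCh38.p14).

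The members and gene lists were chosen with earlier results of these data known. Named genes are KDM5C, KDM6A, KDM6B, KDM5A and KDM5B; the 15 largest differences in each direction among called genes with at least 5 CPM in the higher group, non-overlapping libraries and a symbol that is neither clone-based nor a pseudogene's; the 5 most abundant in each direction with at least 2-fold differences; genes with 0 counts in 1 group and at least 5 CPM in the other; and up to 4 members per list by adjusted p, not all of which are described; a few that these rules name are not reported here. Lists are described by counts and medians, with no test of the list. Alternatives were DESeq2 1.42.0, limma-voom 3.58.1, upper-quartile factors, library totals only, no filter, a filter of a mean of at least 1 CPM, the 4 compared libraries alone, a replicate block, and each of the 8 libraries left out in turn; genes outside shifted 20 Mb bins were added after the data were seen.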

Additional observations from a re-analysis of the deposited data

How the results depend on the processing

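Of 150 named genes that were called, 119 were called in every one of the 16 alternatives, MAJIN and PCDHB11 in each of the 15 that tested them, and no named or summary value that was called reversed its direction. The KDM5C transcript difference moved to -0.22 with upper-quartile factors, -0.20 with library totals only and -0.26 with no filter, and no longer passed the test. With a library left out it ranged from -0.30 to -0.21, and the calls with leave-one-out ranged from 1878 to 4158 in all, from 1096 to 2129 for genes higher in sgKDM5C and from 758 to 2090 for genes higher in sgKDM6A, the low values each without a compared library. List members higher in sgKDM6A ranged from 99 to 245 under the same omissions, beside 190 with all libraries. With a compared library left out, its group has a single library, which is assumed to vary like the other groups. With the filter of a mean of at least 1 CPM, 188 genes were at least 2-fold higher in sgKDM6A, beside 305; that filter tests fewer genes. DESeq2 called 1827 genes higher in sgKDM5C and 1660 higher in sgKDM6A, limma-voom 1999 and 1687, and library totals only 2187 and 1220. With the replicate number as a block 2200 and 1910 genes were called. Same-numbered libraries of the compared groups had deviations that correlated with r = 0.18, and pairs of other groups with r from -0.02 to 0.10, so the numbers were not taken to pair the samples. Depth limits the lowest genes: where a group has 3 counts or fewer, only a bound or a ratio with its counting interval is given.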
